A study of Homo sapiens with 30 samples.

Results

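A549 human lung epithelial cells exposed for 4 h to naphthalene-derived secondary organic aerosol on soot (SOA_NAP-SP) were compared with A549 cells exposed to clean air (CA). Exposure group came from the sample labels, and each group held 4 poly-A RNA libraries, so that 8 of the 30 libraries of the series form the comparison. A gene was tested when its count was at least 30 in at least 3 of the 15 A549 libraries, which kept 11775 of 18460 genes. The remaining A549 libraries, 3 exposed to soot particles alone (SP) and 4 to β-pinene-derived aerosol on soot (SOA_βPIN-SP), shared the fit and served for direct comparison. In every group, CA included, A549 cells grew on the air side of a porous insert above EA.hy926 endothelial cells on its lower face. The A549 line comes from a lung adenocarcinoma and carries an inactivating mutation of KEAP1, the inhibitor of NRF2.

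Secondary organic aerosol forms when vapours are oxidized in air and condense, here onto soot, and naphthalene, a bicyclic aromatic, gives products that include quinones and other oxygenated aromatics. Airway epithelial cells meet inhaled particles first. Their known answers include detoxifying enzymes under NRF2 and the aryl hydrocarbon receptor (AHR), chemokines that draw neutrophils, prostaglandins, and the gel-forming mucins that goblet cells release to trap particles. Immediate early genes are genes whose mRNA rises within minutes to hours of a stimulus without new protein synthesis, and many encode transcription factors.

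Library totals were 9647313 to 12369911 counts in CA and 10449042 to 14035383 with SOA_NAP-SP, and the ranges overlapped. The labels assign the CA libraries to experiments 24, 38, 42 and 53 and the SOA_NAP-SP libraries to experiments 42, 44, 46 and 49, so experiment 42 alone held both. Exposure and experiment can thus be told apart in part only. The summed level of 10 epithelial marker genes was 13947 to 15772 CPM (counts scaled to a common library total) in CA and 15043 to 17310 with SOA_NAP-SP, against 1540 to 1931 in the EA.hy926 libraries of the same exposures. A list of 20 endothelial markers summed to 98.5 to 150 CPM in these A549 libraries and 4261 to 5505 in EA.hy926 cells. EGFL7 alone made up 80.1 to 119 CPM of the A549 sums. In CA, ENG had a maximum of 16.1 CPM and a median of 0.172, and TIE1 and ERG maxima of 1.59 and 1.41 with medians of 0. With SOA_NAP-SP these maxima were 0.563, 0 and 0. At least 1 CA library thus held more of these endothelial transcripts than the others, and their source was not tested. Of the surfactant and alveolar type II genes listed, 7 reached the count minimum, and the defining marker SFTPC was at 0 to 0.207 CPM, so A549 is described here as an epithelial line and not as alveolar type II cells. By the study's methods the A549 cells were scraped from their face of the insert and stored apart from the EA.hy926 cells. Since the RNA of all these cells was pooled, fewer cells of a kind and less RNA per cell cannot be told apart.

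In total 2148 genes were differentially expressed (DEGs, meaning an edgeR adjusted p up to 0.05 and a change of 0.5 or more on the log2 scale), 18.2% of the genes tested. Of these, 815 were higher with SOA_NAP-SP (6.92% of the genes tested) and 1333 were lower (11.3%), and 37.9% of the DEGs were thus upregulated. With scaling by library totals instead of TMM, 524 were higher and 1744 lower, 23.1% upregulated, while the median log2 fold change of all genes moved from 0.00 to -0.09. Changes of more than 1 on the log2 scale were found for 139 higher and 393 lower genes. The first principal component of the 8 libraries held 59.2% of the variance and placed CA between -34.3 and -18.2 and SOA_NAP-SP between 20.8 and 27.0. The 4 exposed libraries thus lay closer together than the controls. All 4 SOA_NAP-SP libraries exceeded all 4 CA libraries in 15.3% of the genes and were below all of them in 17.8%.

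**Figure D1:**
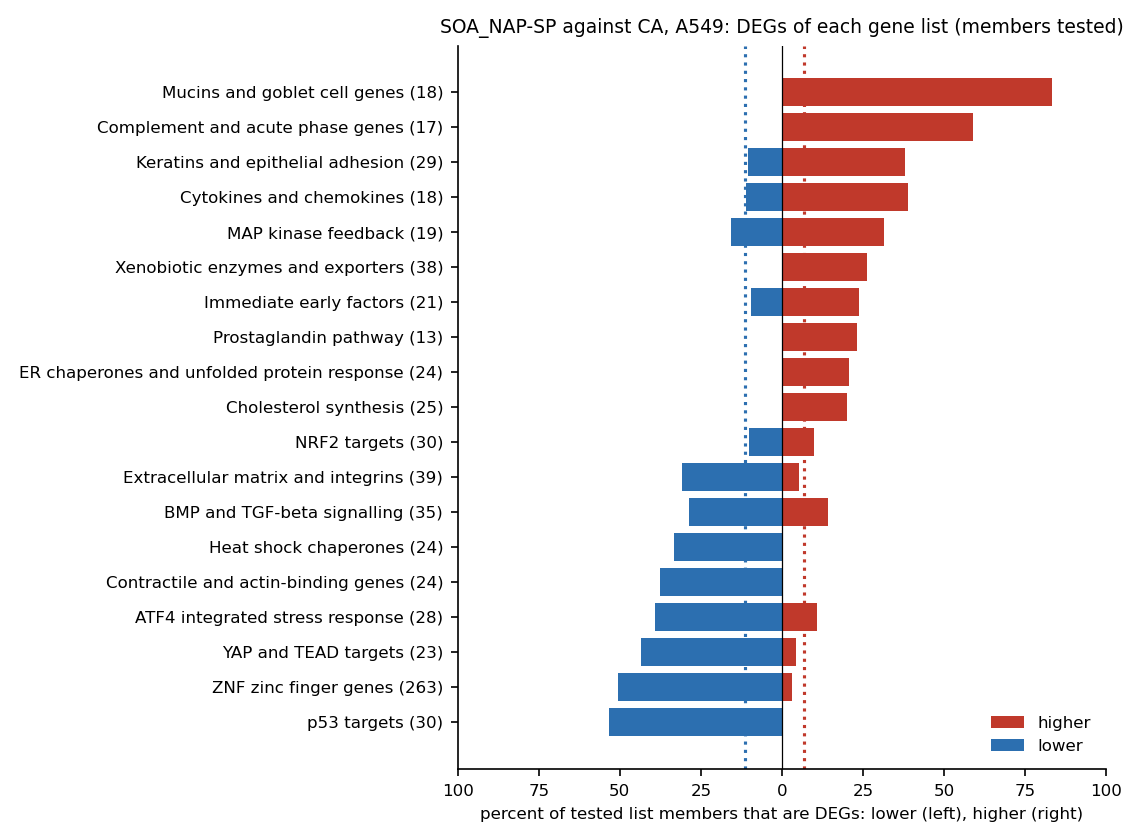
Percent of the tested members of selected gene lists that were DEGs of SOA_NAP-SP against CA in A549 cells, lower to the left (blue) and higher to the right (red), with the number of members tested in brackets. Other lists are not drawn, among them some described in the text and some with few DEGs, such as glycolysis (8.33%) and DNA repair (8.51%). Dotted lines mark the share among all 11775 genes, 11.3% lower and 6.92% higher. Mucin and goblet cell genes reach 15 of 18 on the right, and p53 targets 16 of 30 on the left.

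Chemokines that attract neutrophils rose with SOA_NAP-SP. Of 18 cytokine, chemokine and receptor genes tested, 7 were higher (background 6.92%) and 2 lower (11.3%), with a median log2 fold change of 0.02 beside 0.00 over all genes. The list as a whole was split, with 9 estimates above 0 and 9 below, the lowest at -1.22. CXCL2, CXCL1 and CXCL3 encode ligands of the neutrophil receptor CXCR2, and CXCL8 encodes interleukin-8, a ligand of CXCR1 and CXCR2. The 4 genes lie within a chemokine cluster on chromosome 4 (GRCh38, GENCODE v44), from CXCL8 at chr4:73740519-73743716 to CXCL2 at chr4:74097040-74099196. Normalized counts are counts divided by the effective library size (total times TMM factor) and multiplied by the mean effective size, and SE is the standard error of the log2 fold change. Normalized counts of CXCL2 in CA replicates 1 to 4 were 29, 37.8, 36.3 and 39, and with SOA_NAP-SP 234, 323, 257 and 404. Every exposed library thus held more than any control, and the log2 fold change was 3.09 (SE 0.21, edgeR adjusted p = 8.0e-09). CXCL8 counts were 331, 455, 526 and 287 in CA and 1676, 2750, 1681 and 2439 with SOA_NAP-SP, again with no overlap (2.42 ± 0.25 SE, edgeR adjusted p = 1.3e-05). For CXCL1 the libraries held 94.1, 85.1, 132 and 53.2 in CA against 268, 337, 254 and 477 (1.90 ± 0.26 SE, edgeR adjusted p = 6.4e-05), and for CXCL3 63, 109, 103 and 57.7 against 283, 305, 264 and 372 (1.89 ± 0.18 SE, edgeR adjusted p = 3.6e-07). The groups were apart for both genes, with CA replicate 3 the highest control of CXCL1. CCL2, which attracts monocytes, rose by 1.21 (SE 0.18, edgeR adjusted p = 7.5e-05). CXCL5, a further neutrophil ligand, overlapped between the groups and was higher by 0.60 (SE 0.17, edgeR adjusted p = 0.015), a call lost without CA replicate 4 (0.46) or with scaling by totals alone (0.50). CXCR4, the receptor of CXCL12, overlapped between the groups (40.03, 20.8, 116 and 56.8 in CA, 74.2, 64.5, 188 and 73.5 exposed) and was no DEG (0.78 ± 0.45 SE, edgeR adjusted p = 0.19). The value of CXCR4 ranged from 0.31 without SOA_NAP-SP replicate 3 to 1.32, which passed the test, without CA replicate 3. IL1B and IL6 were under the count minimum and were not tested.

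The promoter windows of 4 of these chemokines are shown because they share an NF-κB site at a like position. Windows run from 250 bases before to 50 after the start in RefSeq (GRCh38.p14), each on its gene's strand, and capitals mark the match. Of 11775 tested genes, 9271 had a window, and the first listed was used where a gene had several.
CXCL1 (chr4:73869143-73869442, plus strand): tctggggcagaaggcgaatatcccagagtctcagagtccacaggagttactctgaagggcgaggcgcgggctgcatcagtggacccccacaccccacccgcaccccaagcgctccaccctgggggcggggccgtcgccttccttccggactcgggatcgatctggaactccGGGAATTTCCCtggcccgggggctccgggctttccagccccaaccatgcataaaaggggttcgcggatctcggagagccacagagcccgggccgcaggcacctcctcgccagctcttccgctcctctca
CXCL2 (chr4:74099146-74099445, minus strand): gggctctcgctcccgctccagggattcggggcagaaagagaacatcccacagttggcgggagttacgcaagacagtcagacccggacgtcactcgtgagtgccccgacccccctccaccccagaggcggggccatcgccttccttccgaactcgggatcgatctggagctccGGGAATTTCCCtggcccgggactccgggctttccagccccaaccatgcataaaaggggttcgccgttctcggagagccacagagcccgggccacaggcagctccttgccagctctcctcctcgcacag
CXCL3 (chr4:74038640-74038939, minus strand): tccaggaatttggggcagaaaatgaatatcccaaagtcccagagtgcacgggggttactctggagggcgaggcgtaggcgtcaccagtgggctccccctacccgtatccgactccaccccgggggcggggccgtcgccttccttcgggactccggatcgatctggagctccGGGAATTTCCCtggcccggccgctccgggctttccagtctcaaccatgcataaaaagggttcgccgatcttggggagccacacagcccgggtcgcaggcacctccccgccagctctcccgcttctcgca
CXCL5 (chr4:73998628-73998927, minus strand): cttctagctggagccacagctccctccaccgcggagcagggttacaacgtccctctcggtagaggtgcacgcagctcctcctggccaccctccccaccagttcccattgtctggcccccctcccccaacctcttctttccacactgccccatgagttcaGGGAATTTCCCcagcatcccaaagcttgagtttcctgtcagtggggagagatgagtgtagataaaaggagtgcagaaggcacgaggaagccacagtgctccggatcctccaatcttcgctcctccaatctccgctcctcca
All 4 windows hold the same 11 bases, GGGAATTTCCC, in which the NF-κB pattern matches on both strands, shifted by 1 base. Counted from the start, the first match begins at -79 in CXCL1, -78 in CXCL2, -79 in CXCL3 and -91 in CXCL5. An NF-κB match was found in 617 of the 9271 windows (6.66%), in 5 of the 12 cytokine list members with a window and in 4 of the 6 that rose. The 4 windows shown belong to related neighbouring genes and resemble each other in part, so their matches are not independent of each other. The window of CXCL8 held no match to this pattern. These are matches of letters in a window, with no measurement of binding.

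Of 16 NF-κB subunits and feedback inhibitors, 2 were higher (4 with DESeq2, with no filter on low counts, with edgeR's filterByExpr, without CA replicate 3 or without SOA_NAP-SP replicate 1) and 1 lower, with a median of 0.04. The share called, 18.8%, was near the 18.2% of all genes. NFKBIA encodes IκBα, the inhibitor that NF-κB itself induces, and its libraries held 803, 667, 842 and 754 in CA and 1786, 1637, 1582 and 1460 with SOA_NAP-SP. It rose in every exposed library, by 1.08 (SE 0.14, edgeR adjusted p = 2.1e-05). An NF-κB match was found in 7 of the 14 list members with a window, beside 6.66% of all windows. It was found in 1 of the 2 that rose and also in TNFAIP3, the 1 member that fell. The window of NFKBIA (chr14:35404700-35404999, minus strand), shown for the NF-κB match on the opposite strand at -81, reads as follows.
NFKBIA: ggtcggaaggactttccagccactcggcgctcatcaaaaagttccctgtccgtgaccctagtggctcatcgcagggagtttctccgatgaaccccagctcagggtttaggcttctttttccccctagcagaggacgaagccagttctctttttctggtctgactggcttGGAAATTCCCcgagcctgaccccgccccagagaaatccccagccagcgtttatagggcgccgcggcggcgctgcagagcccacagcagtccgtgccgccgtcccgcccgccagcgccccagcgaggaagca
TNFAIP3, the deubiquitinase A20 and likewise an NF-κB-induced inhibitor, went the other way, from 74, 92.7, 102 and 99.4 to 53.1, 58.9, 57.6 and 71.6 (-0.61 ± 0.17 SE, edgeR adjusted p = 0.0085, -0.46 and no call when counts were thinned to the shallowest library). NFKB2, the p100 subunit, was higher with overlapping groups (0.55 ± 0.19 SE, edgeR adjusted p = 0.032). Its call was lost without CA replicate 1 (0.49), CA replicate 2 (0.56), CA replicate 4 (0.56) or SOA_NAP-SP replicate 4 (0.33), and under scaling by totals alone (0.46).

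PTGS2, which encodes the inducible cyclooxygenase COX-2 that makes prostaglandin H2, rose in every library. It lies at chr1:186671791-186680922. Counts were 2154, 2662, 2885 and 1982 in CA and 9751, 13791, 9734 and 11254 with SOA_NAP-SP, so the lowest exposed library held more than 3 times the highest control, and the log2 fold change was 2.20 (SE 0.12, edgeR adjusted p = 1.3e-09). PLA2G4A, the cytosolic phospholipase that frees arachidonic acid for this enzyme, rose from 1006, 1076, 949.6 and 819.7 to 1509, 1950, 1694 and 1692 (0.83 ± 0.10 SE, edgeR adjusted p = 8.5e-06). TBXAS1, thromboxane synthase, rose by 0.90 (SE 0.24, edgeR adjusted p = 0.0083). The other 10 of 13 prostaglandin pathway genes tested were no DEGs, and the list median was 0.20. The share called was 23.1%, beside 18.2% of all genes.

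Of 21 immediate early factors, 5 were higher (6.92% over all genes) and 2 lower (11.3%), with a median of 0.25. Estimates were above 0 for 12 and below 0 for 9, the lowest at -1.07. Without CA replicate 2 the count of lower genes was 6 and the median 0.09, and with scaling by totals alone 4 were lower. FOS, a subunit of AP-1, held 601, 534, 1572 and 1141 in CA and 2211, 2202, 3511 and 3267 with SOA_NAP-SP. CA replicate 3 was the highest control and stayed below every exposed library (1.54 ± 0.34 SE, edgeR adjusted p = 0.0047). The orphan nuclear receptor gene NR4A2 rose by 1.79 (SE 0.26, edgeR adjusted p = 2.3e-04) and its relative NR4A1 by 1.13 (SE 0.29, edgeR adjusted p = 0.011), both without overlap. JUND, another AP-1 subunit, rose by 0.84 (SE 0.14, edgeR adjusted p = 2.1e-04). From other lists of factors, HES1, the Notch-induced repressor, rose from 731, 778, 1308 and 1018 to 2061, 1981, 2758 and 2728 (1.31 ± 0.19 SE, edgeR adjusted p = 1.2e-04), and the Krüppel-like factor KLF6 from 1448, 1298, 1697 and 1765 to 3288, 3210, 2856 and 3411 (1.04 ± 0.12 SE, edgeR adjusted p = 7.6e-06). In these 2 genes as well, no control reached an exposed library. Their lists went both ways. Among 14 Notch genes 2 were higher and 3 lower, and among 12 KLF factors 2 were higher and 1 lower (6.92% and 11.3% over all genes).

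Among 19 genes that restrain MAP kinases, 6 were higher (6.92% over all genes) and 3 lower (11.3%), with a median of 0.22. DUSP10, a phosphatase that prefers p38 and JNK, held 221, 218, 216 and 233 in CA and 572, 633, 713 and 739 with SOA_NAP-SP. The controls differed by little and the smallest exposed value was far above them (1.58 ± 0.11 SE, edgeR adjusted p = 8.0e-09). DUSP8, a phosphatase of the same preference, rose from 164, 218, 211 and 181 to 309, 352, 469 and 626 (1.18 ± 0.29 SE, edgeR adjusted p = 0.0074), with the exposed libraries spread more widely than the controls. DUSP7, which prefers ERK, fell (-0.88 ± 0.17 SE, edgeR adjusted p = 5.2e-04).

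**Figure D2:**
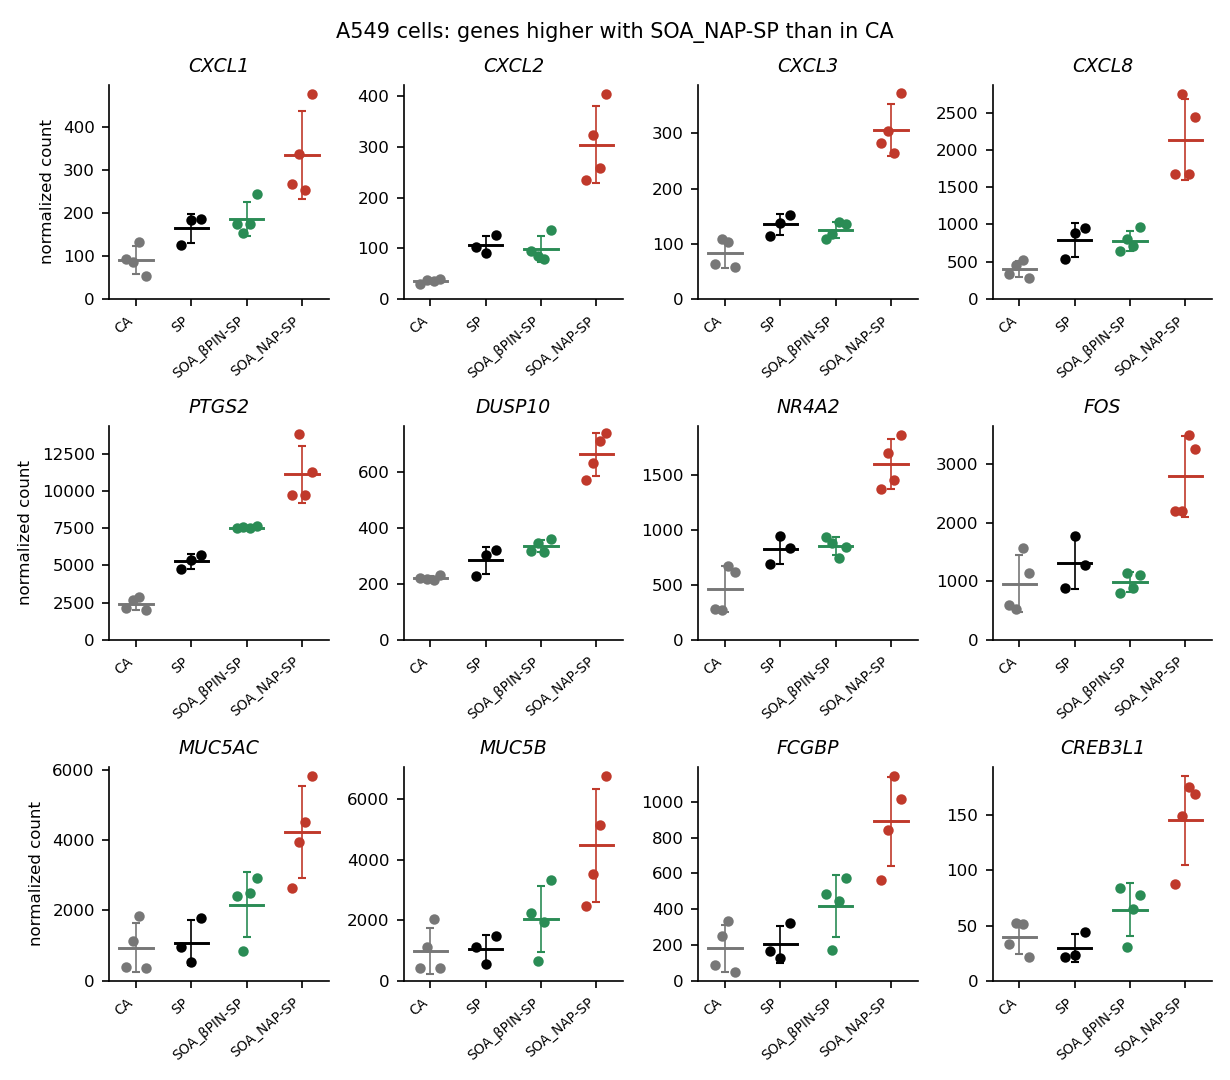
Normalized counts (y axis, from 0, scale differs between panels) of 12 genes in each A549 library by exposure. Points are libraries, the horizontal line is the mean and the bar the SD (n = 4, 3 for SP). CXCL2 lies at 29.0 to 39.0 in CA and 234 to 404 with SOA_NAP-SP, while the mucin panels show wide control spreads, MUC5AC from 372 to 1845.

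Most of the mucin and goblet cell genes that could be tested rose. Of 30 listed, 18 were tested. Of these 18, 15 were higher and 0 lower (6.92% and 11.3% over all genes), and the median was 1.00. MUC5AC encodes the gel-forming mucin that goblet cells release on irritation, and lies at chr11:1157953-1201138 beside MUC5B, the other main gel-forming airway mucin, at chr11:1223066-1262172. MUC5AC counts were 408, 1146, 1845 and 372 in CA and 2643, 3955, 4527 and 5808 with SOA_NAP-SP (2.17 ± 0.59 SE, edgeR adjusted p = 0.015). MUC5B counts were 420.3, 1109, 2028 and 412 in CA and 2484, 3532, 5146 and 6745 exposed (2.18 ± 0.63 SE, edgeR adjusted p = 0.019). The exposed libraries exceeded the controls in both genes, but the controls spread widely, and CA replicate 3 came nearest to SOA_NAP-SP replicate 1, which is from the same experiment. The call on MUC5B was lost without CA replicate 1 (1.93) or CA replicate 4 (1.92), and the value rose to 2.79 without CA replicate 3.

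FCGBP, a mucus protein that binds mucins, held 91.1, 249.7, 333 and 51.5 in CA and 564, 842, 1141 and 1012 exposed (2.31 ± 0.55 SE, edgeR adjusted p = 0.0072). SPDEF, the ETS factor required for goblet cell formation in mice, rose from 502, 649, 634 and 368 to 900.4, 1109, 1185 and 1196 (1.03 ± 0.21 SE, edgeR adjusted p = 0.0017), and FOXA3, which also promotes goblet cell genes, rose by 1.55 (SE 0.23, edgeR adjusted p = 9.0e-05). CREB3L1, a membrane-bound factor of the secretory pathway, rose from 33, 52, 51.5 and 21.3 to 87.2, 148, 175 and 169 (1.89 ± 0.33 SE, edgeR adjusted p = 4.3e-04). The groups were apart in all of these. The antiprotease gene SLPI rose by 1.21 (SE 0.32, edgeR adjusted p = 0.011) and the membrane mucin genes MUC1 and MUC13 by 0.97 (SE 0.27, edgeR adjusted p = 0.011) and 0.81 (SE 0.19, edgeR adjusted p = 0.0035). The ranges of SLPI and MUC13 overlapped by 1 library on either side. SLC26A9, a chloride transporter of airway epithelium, rose by 0.91 (SE 0.21, edgeR adjusted p = 0.0020), and VAMP8, which drives fusion of mucin granules, by 0.65 (SE 0.16, edgeR adjusted p = 0.0053).

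Of 29 keratin and epithelial adhesion genes, 11 were higher (6.92% over all genes) and 3 lower (11.3%), with a median of 0.23. The adhesion molecule CEACAM1 rose from 58, 104, 92.4 and 33.7 to 192, 296, 334 and 302 (1.97 ± 0.32 SE, edgeR adjusted p = 3.8e-04), and the tight junction gene TJP3 from 49, 75.7, 94.7 and 46.1 to 158, 188, 206 and 177 (1.47 ± 0.20 SE, edgeR adjusted p = 2.0e-05). CDH1, which encodes E-cadherin, rose by 0.63 (SE 0.12, edgeR adjusted p = 6.7e-04), and KRT19 by 0.81 (SE 0.13, edgeR adjusted p = 1.9e-04). KRT80, a type II keratin, was an exception of large size. It fell from 8590, 8319, 8970 and 10857 in CA to 2398, 2091, 2073 and 2711 (-1.99 ± 0.24 SE, edgeR adjusted p = 5.8e-05), with no overlap.

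Of 17 complement and acute phase genes, 10 were higher (6.92% over all genes) and 0 lower (11.3%), with a median of 0.75. The fibrinogen chain genes FGB and FGG rose by 1.00 (SE 0.23, edgeR adjusted p = 0.0052) and 1.10 (SE 0.27, edgeR adjusted p = 0.0070), and SERPINA1, the gene of α1-antitrypsin, rose from 30.02, 48.2, 38.6 and 24.8 to 50.1, 62.9, 99.9 and 84.9 (1.07 ± 0.25 SE, edgeR adjusted p = 0.0028). The ranges of FGG touched, with CA replicate 2 at 2383 and SOA_NAP-SP replicate 1 at 2370. GDF15, a stress-induced cytokine listed elsewhere, rose from 6181, 11525, 8499 and 5226 to 14781, 18103, 16844 and 19338 (1.14 ± 0.22 SE, edgeR adjusted p = 0.0016).

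Of 38 xenobiotic enzymes and exporters, 10 were higher (6.92% over all genes) and 0 lower, with a median of 0.36. The count was 6 without CA replicate 4 and 6 with scaling by totals alone. GSTA1, a glutathione transferase, held low counts of 7, 15.1, 22.2 and 1.77 in CA and 21.1, 42.8, 51.7 and 34.3 with SOA_NAP-SP, which overlapped (1.74 ± 0.43 SE, edgeR adjusted p = 0.0042). CYP4F11, a fatty acid hydroxylase, rose from 323, 386, 505 and 239 to 633, 701, 674 and 657 (0.88 ± 0.16 SE, edgeR adjusted p = 4.8e-04), and the aldo-keto reductase gene AKR1C1 by 0.79 (SE 0.20, edgeR adjusted p = 0.0070). CA replicate 4 was the lowest control for CYP4F11 and AKR1C1.

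Of 30 NRF2 targets, 3 were higher and 3 lower, a share near the 18.2% called among all genes, with a median of 0.13. Without CA replicate 4, 1 was higher and 5 lower, and with scaling by totals alone 1 and 4. HMOX1, heme oxygenase 1, fell in every exposed library, from 32596, 32440, 24290 and 26095 to 16190, 16934, 18336 and 16238 (-0.77 ± 0.13 SE, edgeR adjusted p = 1.6e-04), and SRXN1, sulfiredoxin, from 2661, 2673, 1886 and 1624 to 1323, 1392, 1349 and 1225 (-0.74 ± 0.14 SE, edgeR adjusted p = 6.5e-04). AKR1C1 above is a member as well. The antioxidant response element core (TGACNNNGC, both strands) was found in 5 of the 21 members with a window and in 15.3% of all windows.

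AHR, the receptor of many polycyclic aromatics, and its target CYP1A1 changed in opposite directions. AHR rose from 385, 401, 619.8 and 416 to 757, 909, 764 and 934 (0.89 ± 0.13 SE, edgeR adjusted p = 6.1e-05), with CA replicate 3 far above the other controls. CYP1A1, the monooxygenase that AHR classically induces, fell from 36, 41.6, 44.4 and 39 to 15, 22.6, 11.8 and 26.7 (-1.05 ± 0.28 SE, edgeR adjusted p = 0.0063). Groups were apart in both genes. In all, 3 of 9 AHR genes tested were higher (6.92% over all genes), AHR itself among them, and 1 was lower (11.3%). The count of higher genes was 1 without CA replicate 4 and 1 with scaling by totals alone. The xenobiotic response element core (GCGTG, both strands) was found in 4 of the 6 members with a window and in 51.9% of all windows.

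NOX1, a superoxide-generating oxidase, rose from 18, 41.6, 25.7 and 7.98 to 46.1, 80.7, 71.7 and 58.2 (1.47 ± 0.36 SE, edgeR adjusted p = 0.0041). GPX2, a glutathione peroxidase of epithelia, rose by 0.75 (SE 0.19, edgeR adjusted p = 0.0084). Of 17 superoxide and peroxide genes, 3 were higher (6.92% over all genes) and 2 lower (11.3%).

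Sterol genes were higher in part, with 5 of 25 higher (6.92% over all genes) and 0 lower (11.3%). All 25 estimates were above 0 (median 0.28), and the share called was near the 18.2% of all genes. INSIG1, a sterol-sensing inhibitor, rose from 600.4, 564, 627 and 593 to 961, 1011, 1073 and 1097 (0.80 ± 0.09 SE, edgeR adjusted p = 3.0e-06). FASN, fatty acid synthase, rose by 0.84 (SE 0.16, edgeR adjusted p = 0.0011). In the fatty acid synthesis list, 3 of 23 genes were higher and 0 lower (median 0.10). SLC38A2, a transporter of small neutral amino acids, rose from 9104, 7955, 10530 and 8604 to 22556, 22054, 19631 and 20401 (1.23 ± 0.09 SE, edgeR adjusted p = 1.5e-08), with no overlap. The amino acid transporters as a list were split, with 5 of 21 higher and 5 lower (median 0.02).

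In the endoplasmic reticulum list, 5 of 24 genes were higher (3 with scaling by totals alone) and 0 lower (median 0.17). Over all genes, 6.92% were higher and 11.3% lower. XBP1, whose spliced form induces chaperones, rose from 1893, 2691, 1826 and 1156 to 3216, 3962, 3643 and 3383 (0.91 ± 0.21 SE, edgeR adjusted p = 0.0053), and DNAJB9, a lumenal co-chaperone, by 0.73 (SE 0.10, edgeR adjusted p = 1.9e-05). The ATF4 list went the other way, with 11 of 28 lower, 3 higher and a median of -0.26 (-0.12 without CA replicate 2). CHAC1, which degrades glutathione, fell (-1.15 ± 0.27 SE, edgeR adjusted p = 0.0050) and VLDLR likewise (-1.14 ± 0.15 SE, edgeR adjusted p = 1.4e-05), while the 3 that rose were GDF15, CTH and PPP1R15A.

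Of 24 heat shock chaperone genes, 8 were lower (11.3% over all genes), 0 higher and 16 not called, with a median of -0.41. The count of lower genes was 13 without CA replicate 2 and 14 without SOA_NAP-SP replicate 3. HSPB8, a small heat shock protein, held 3085, 2324, 2997 and 3846 in CA and 941, 1028, 1594 and 1303 with SOA_NAP-SP, without overlap (-1.33 ± 0.30 SE, edgeR adjusted p = 0.0051). HSPA1L fell from 264, 116, 439 and 379 to 61.2, 36.3, 145 and 55.3 (-2.05 ± 0.47 SE, edgeR adjusted p = 0.0053), and the stress-inducible HSP70 gene HSPA1A from 8703, 4569, 10475 and 10092 to 3415, 2575, 6794 and 3242 (-1.08 ± 0.31 SE, edgeR adjusted p = 0.018). In both, CA replicate 2 lay below the highest exposed library, SOA_NAP-SP replicate 3. The call on HSPA1A was lost without CA replicate 4 (-0.98), without SOA_NAP-SP replicate 4 (-0.99) or with only the 2 groups compared in the fit (-1.08). HSPA6, an HSP70 gene expressed almost only under stress and not on the list, showed the same spread, with 783, 365, 1953 and 1492 in CA and 117, 52.4, 454 and 140.2 exposed (-2.63 ± 0.69 SE, edgeR adjusted p = 0.012, -3.48 without SOA_NAP-SP replicate 3).

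Heat shock promoters are shown because a heat shock element core (GAANNTTC, a pattern that reads the same on both strands) was found in 10 of the 22 members with a window, against 4.45% of all windows, and in 5 of the 8 that fell. HSPA1A and HSPA1L are divergent neighbours on chromosome 6, and their windows overlap.
HSPA1A (chr6:31815293-31815592, plus strand): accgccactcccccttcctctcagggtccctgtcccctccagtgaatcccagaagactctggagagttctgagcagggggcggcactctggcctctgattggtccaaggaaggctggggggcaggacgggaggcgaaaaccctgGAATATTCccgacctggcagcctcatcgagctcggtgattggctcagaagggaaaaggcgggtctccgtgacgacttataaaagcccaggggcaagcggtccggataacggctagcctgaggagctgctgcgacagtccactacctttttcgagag
HSPA1L (chr6:31815234-31815533, minus strand): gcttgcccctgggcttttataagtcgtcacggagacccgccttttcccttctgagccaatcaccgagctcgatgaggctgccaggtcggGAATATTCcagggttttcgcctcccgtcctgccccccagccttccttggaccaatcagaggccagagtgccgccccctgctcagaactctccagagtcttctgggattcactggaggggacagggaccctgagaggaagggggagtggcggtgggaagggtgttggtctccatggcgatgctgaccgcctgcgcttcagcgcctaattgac
HSPB8 (chr12:119178681-119178980, plus strand): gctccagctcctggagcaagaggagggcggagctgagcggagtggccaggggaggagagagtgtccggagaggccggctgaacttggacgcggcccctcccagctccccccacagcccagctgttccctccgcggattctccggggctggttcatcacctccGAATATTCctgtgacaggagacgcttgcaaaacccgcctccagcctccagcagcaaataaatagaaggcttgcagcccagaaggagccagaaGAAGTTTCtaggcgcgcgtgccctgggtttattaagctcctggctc
The match in HSPA1A at -106 and the match in HSPA1L at -161 are the same bases, chr6:31815437-31815444, read from either strand. HSPB8 holds 1 match at -88 and 1 at 4, after the start.

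Of the 30 p53 targets on the list used here, 16 were lower (11.3% over all genes) and 0 higher, with a median of -0.51. The list does not hold every p53 target, and GDF15, which rose, is not on it. BTG2, an antiproliferative gene, fell from 274, 323, 255 and 229 in CA to 72.2, 77.5, 97.6 and 86.8 (-1.70 ± 0.14 SE, edgeR adjusted p = 1.1e-07), and SESN1, a stress-induced inhibitor of mTORC1, from 81.1, 101, 81.9 and 84.3 to 20.1, 23.4, 43.5 and 20.04 (-1.73 ± 0.23 SE, edgeR adjusted p = 1.5e-05). TIGAR, a regulator of glycolysis, fell (-1.19 ± 0.14 SE, edgeR adjusted p = 2.8e-06) and TP53INP1 likewise (-1.25 ± 0.13 SE, edgeR adjusted p = 1.1e-06). MDM2, the p53 ubiquitin ligase, fell from 1688, 1557, 1630 and 1399 to 651, 741, 885 and 705 (-1.07 ± 0.10 SE, edgeR adjusted p = 3.6e-07), and CDKN1A, the cell cycle inhibitor p21, from 12563, 11869, 9710 and 11271 to 6159, 6309, 9887 and 6799 (-0.64 ± 0.15 SE, edgeR adjusted p = 0.0037). Every exposed library was below every control in 5 of these 6 genes, and in CDKN1A SOA_NAP-SP replicate 3 lay just above CA replicate 3. The cyclin D1 gene CCND1 fell (-0.94 ± 0.10 SE, edgeR adjusted p = 1.5e-06), and its partner kinase gene CDK6 from 876, 814, 760.2 and 896 to 347, 394, 339.7 and 382 (-1.19 ± 0.12 SE, edgeR adjusted p = 4.4e-07). Among 20 cyclin, CDK inhibitor and growth arrest genes, 4 were lower (11.3% over all genes) and 1 higher (6.92%). Their estimates ran from -1.70 to 1.72. Of 39 DNA replication genes 2 were higher and 5 lower (17.9% called), and of 39 mitosis genes 3 were higher and 1 lower (10.3%), beside 18.2% of all genes. Without SOA_NAP-SP replicate 1 no gene of either list was called higher, and the mitosis count of higher genes was 1 without CA replicate 1 and 0 with scaling by totals alone.

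Contractile and matrix genes were lower in part. Of 24 contractile and actin-binding genes, 9 were lower (11.3% over all genes) and 0 higher (6.92%), with a median of -0.42. TAGLN encodes transgelin, an actin-binding protein of smooth muscle and stressed epithelia, and fell from 163, 66.2, 91.2 and 539 to 42.1, 21, 11.8 and 24.8 (-3.11 ± 0.79 SE, edgeR adjusted p = 0.011). CA replicate 4 alone held over 500, and without it the value was -2.08. TPM1, a tropomyosin, fell from 5764, 4408, 4458 and 8820 to 2379, 2081, 2066 and 2244 (-1.42 ± 0.24 SE, edgeR adjusted p = 6.4e-04), and CNN2, a calponin, from 904, 833, 808 and 1101 to 468, 370.3, 426 and 448 (-1.09 ± 0.11 SE, edgeR adjusted p = 6.5e-07). Of 39 matrix and integrin genes, 12 were lower (7 without CA replicate 4) and 2 higher (4 without CA replicate 3). SPARC, a collagen-binding matrix protein, fell from 550.4, 218, 249 and 843 to 170.5, 75, 114 and 120.2 (-1.97 ± 0.51 SE, edgeR adjusted p = 0.012), where CA replicate 4 was again the highest, and the stromelysin gene MMP10 fell from 143, 69, 98.2 and 132 to 33.1, 28.2, 31.7 and 37.2 (-1.77 ± 0.29 SE, edgeR adjusted p = 1.6e-04).

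YAP and TEAD targets were lower in 10 of 23 (11.3% over all genes) and higher in 1 (6.92%), with a median of -0.49. AJUBA, a LIM protein that binds the Hippo kinases LATS, fell from 3884, 5042, 4161 and 4215 to 1597, 1578, 1706 and 1729 (-1.39 ± 0.11 SE, edgeR adjusted p = 3.9e-08), and FJX1 likewise (-1.62 ± 0.13 SE, edgeR adjusted p = 5.7e-08). The ranges of AJUBA were far apart. ANKRD1, a cardiac ankyrin repeat gene induced by YAP, fell from 744, 586, 945 and 1148 to 252, 223, 239 and 299.6 (-1.76 ± 0.30 SE, edgeR adjusted p = 8.1e-04).

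Regulators of BMP and TGF-β signalling changed in both directions, and some fell steeply. NOG encodes noggin, a secreted BMP inhibitor, and fell from 100.1, 65.3, 59.6 and 156 to 7.02, 10.5, 8.23 and 8.59 (-3.45 ± 0.38 SE, edgeR adjusted p = 3.1e-06). GDF6, a BMP ligand, fell from 90.1, 31.2, 56.1 and 100.2 to 9.02, 3.23, 7.05 and 3.82 (-3.61 ± 0.49 SE, edgeR adjusted p = 4.1e-05), where few reads remained. ID4, a gene that BMP signals induce, rose from 6, 14.2, 15.2 and 7.10 to 33.1, 51.6, 88.2 and 41 (2.32 ± 0.40 SE, edgeR adjusted p = 2.4e-04). The groups were apart in all 3. Over the list, 10 of 35 genes were lower (11.3% over all genes) and 5 higher (6.92%), with a median of -0.28. Of 21 angiogenic and vasoactive factors, 7 were lower and 4 higher (2 with scaling by totals alone), with a median of -0.20. PDGFB, a platelet-derived growth factor chain, held 324, 291, 317 and 441 in CA and 77.2, 77.5, 54.1 and 102 exposed (-2.13 ± 0.19 SE, edgeR adjusted p = 2.8e-07), and PGF, placental growth factor, fell from 382, 249.7, 432 and 499 to 77.2, 80.7, 228 and 99.2 (-1.71 ± 0.29 SE, edgeR adjusted p = 5.4e-04). The FGF-binding protein gene FGFBP1 rose by 1.12 (SE 0.25, edgeR adjusted p = 0.0025).

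**Figure D3:**
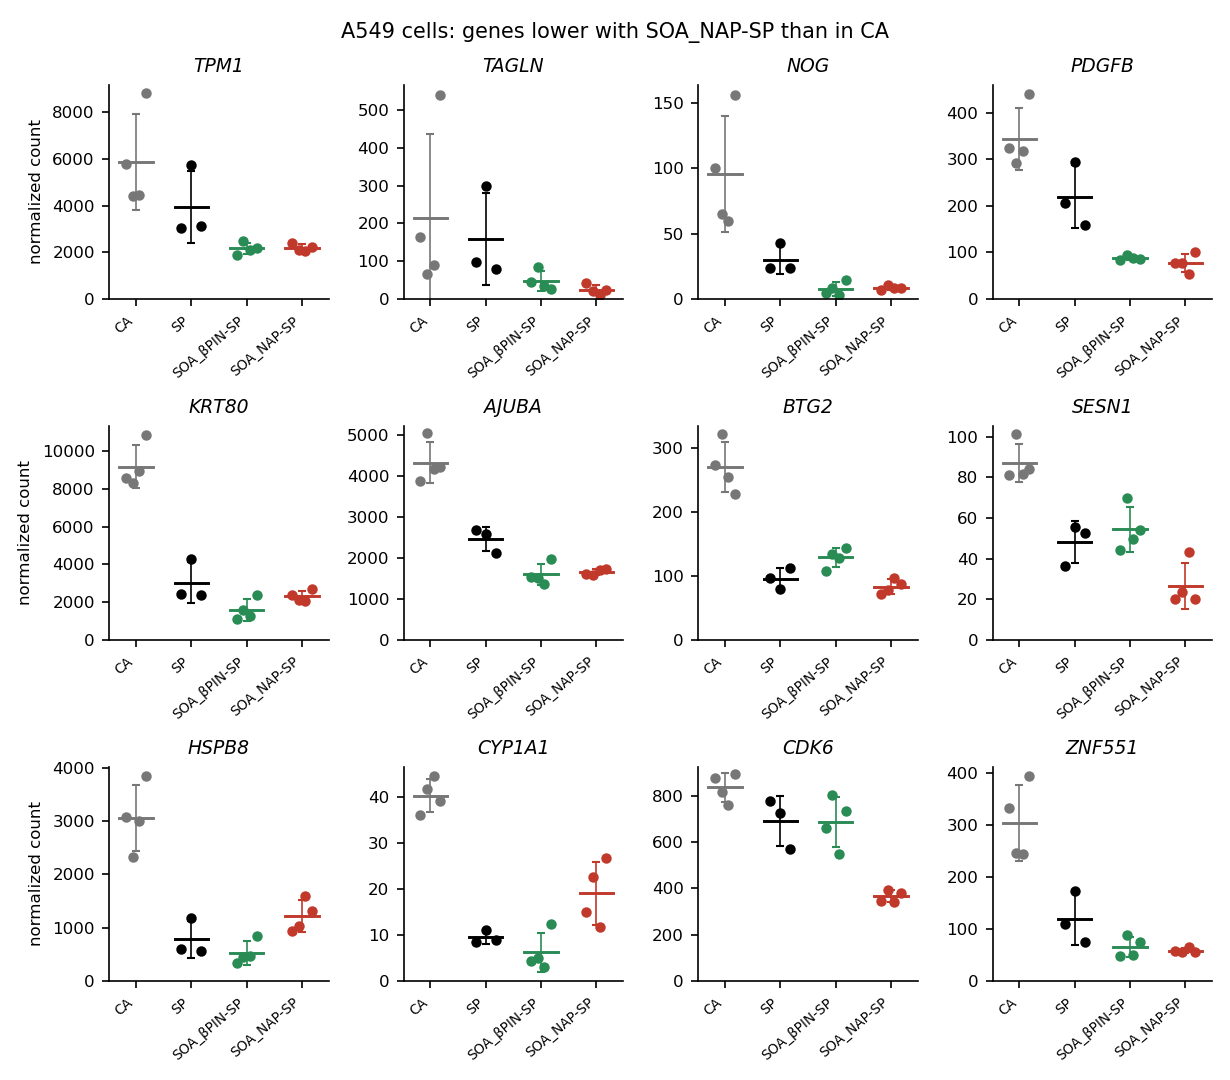
Normalized counts (y axis, from 0, scale differs between panels) of 12 genes in each A549 library by exposure, with points for libraries, the mean as a line and the SD as a bar (n = 4, 3 for SP). KRT80 lies at 8319 to 10857 in CA and 2073 to 2711 with SOA_NAP-SP, and CYP1A1 at 36.0 to 44.4 and 11.8 to 26.7.

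About 1 in 2 of the zinc finger genes named ZNF were lower. Of 263 tested, 133 were lower (50.6%, beside 11.3% of all genes) and 8 higher, with a median of -0.54. With a minimum of 30 CPM in at least 3 libraries, 56 ZNF genes were left, of which 14 were lower, with a median of -0.19. Many ZNF genes encode KRAB repressors of transposable elements and cluster on chromosome 19. The 98 on chromosome 19 had 70 lower (71.4%) and a median of -0.92, the 165 elsewhere 63 lower (38.2%) and a median of -0.33, while the 695 other genes tested on chromosome 19 had 53 lower (7.63%) and a median of 0.16. ZNF genes had lower counts than the rest, with a median CA mean of 121 normalized counts beside 269. Among genes with a CA mean under 300, 117 of 205 ZNF genes were lower (57.1%) and 13.6% of all genes. Among those with a CA mean of 300 or more, 16 of 58 ZNF genes were lower (27.6%, median -0.20) and 8.82% of all genes. ZNF551 held 332, 246, 243 and 395 in CA and 57.2, 55.7, 64.6 and 56.3 with SOA_NAP-SP (-2.39 ± 0.23 SE, edgeR adjusted p = 1.8e-06), ZNF548 fell from 65, 61.5, 49.1 and 109 to 9.02, 12.9, 12.9 and 3.82 (-2.88 ± 0.33 SE, edgeR adjusted p = 3.0e-06), and ZNF365, on chromosome 10, from 94.1, 53, 80.7 and 126 to 12, 12.1, 12.9 and 7.63 (-2.98 ± 0.29 SE, edgeR adjusted p = 5.4e-07). The groups did not overlap in any of the 3. The reads of near-identical zinc finger paralogs can be assigned to the wrong member or dropped, which was not tested.

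**Figure D4:**
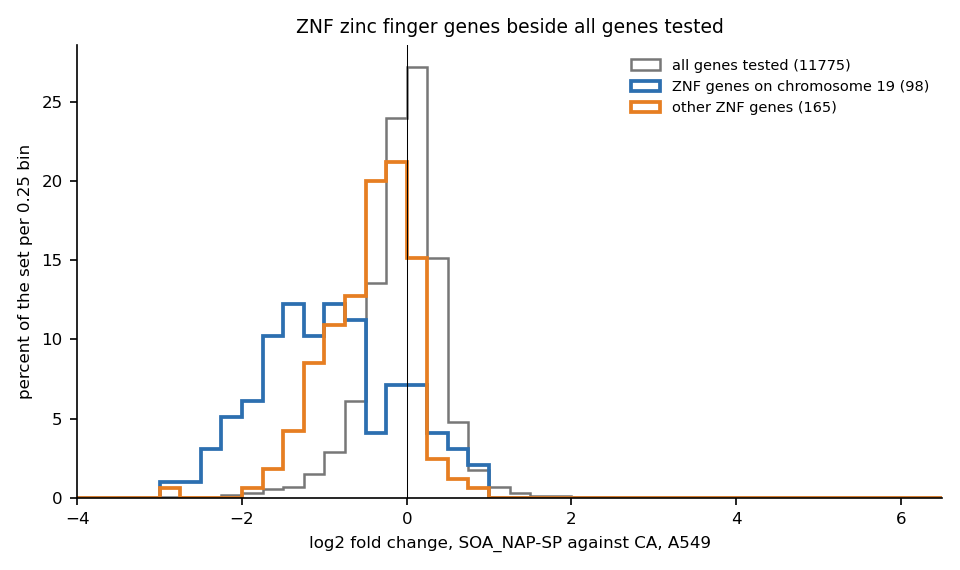
Distribution of log2 fold changes (x axis) of ZNF genes on chromosome 19 (98), other ZNF genes (165) and all 11775 genes tested, as the percent of each set per bin of 0.25 (y axis). The chromosome 19 set is centred at a median of -0.92, the other ZNF genes at -0.33 and all genes at 0.00.

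Mitochondrial transfer RNAs were called higher, messenger RNAs were not called, and of the ribosomal RNAs only MT-RNR1 was called. None of the 13 mitochondrial messenger RNAs was a DEG (edgeR, 4 of them with an unadjusted p of 0.05 or less, and none by limma-voom or DESeq2), and their median was 0.26. MT-CO3, MT-CO2 and MT-ND3, which encode 2 subunits of cytochrome oxidase and 1 of complex I, had an adjusted p under 0.05 and missed the fold limit, at 0.35 (SE 0.10, edgeR adjusted p = 0.012), 0.35 (SE 0.12, edgeR adjusted p = 0.030) and 0.28 (SE 0.10, edgeR adjusted p = 0.043). All 4 mitochondrial transfer RNAs that were tested rose. MT-TM held 238, 258, 409 and 363 in CA and 1442, 1610, 2622 and 2142 with SOA_NAP-SP (2.62 ± 0.36 SE, edgeR adjusted p = 2.0e-04), MT-TL1 rose by 2.11 (SE 0.33, edgeR adjusted p = 2.3e-04), MT-TV by 1.81 (SE 0.33, edgeR adjusted p = 6.7e-04) and MT-TF by 1.30 (SE 0.33, edgeR adjusted p = 0.0061). The ribosomal RNA MT-RNR1 rose by 0.72 (SE 0.14, edgeR adjusted p = 6.8e-04), and MT-RNR2, the other one, was no DEG (0.42 ± 0.18 SE, edgeR adjusted p = 0.079). It passed both limits without CA replicate 3 (0.58), SOA_NAP-SP replicate 1 (0.51) or SOA_NAP-SP replicate 2 (0.53). Poly-A selection is meant to capture messengers and not transfer RNAs, and which molecules these counts derive from was not tested. The mitochondrial share of all counts was 10.7% to 15.3% in CA and 13.1% to 17.4% with SOA_NAP-SP, which overlap. The nuclear long non-coding RNA MALAT1 rose from 469, 400.1, 627 and 763 to 2233, 1971, 1660 and 2053 (1.81 ± 0.31 SE, edgeR adjusted p = 8.9e-04). HIF1A-AS3, an RNA antisense to the hypoxia factor gene, fell from 37, 34, 91.2 and 55 to 6.02, 4.84, 5.88 and 2.86 (-3.44 ± 0.40 SE, edgeR adjusted p = 3.9e-06), and its reads cannot be told apart from overlapping genes without the strand. Cytosolic ribosomal proteins stood at 3 of 80 higher (1 without SOA_NAP-SP replicate 3, 6 without SOA_NAP-SP replicate 4) and 0 lower. Over all genes, 6.92% were higher and 11.3% lower.

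Experiment 42 allowed a comparison of 1 SOA_NAP-SP with 1 CA library, with no replicate and no test. Of the 2148 DEGs, 2096 (97.6%) had the same sign there, and 1395 (64.9%) also a log2 ratio of at least 0.5. Over all 11775 genes tested these shares were 80.1% and 21.1%. These libraries are part of the fit, so the counts are a description. The median was -0.74 within the experiment and -0.78 in the fit for lower DEGs, and 0.48 and 0.69 for higher ones. Heat shock DEGs had a median of -1.47 within experiment 42 (fit -1.05) and p53 DEGs -0.88 (-0.73). Mucin DEGs had a median of 0.51 (1.21), matrix and integrin DEGs -0.50 (-1.04) and complement and acute phase DEGs 0.35 (0.94). For single genes, CXCL2 stood at 2.67, PTGS2 at 1.76, NOG at -3.00 and BTG2 at -1.81, whereas MUC5AC stood at 0.52, MUC5B at 0.29 and TAGLN at -1.11. The 133 ZNF falls belong to a family whose median was -0.56 within the experiment.

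**Figure D5:**
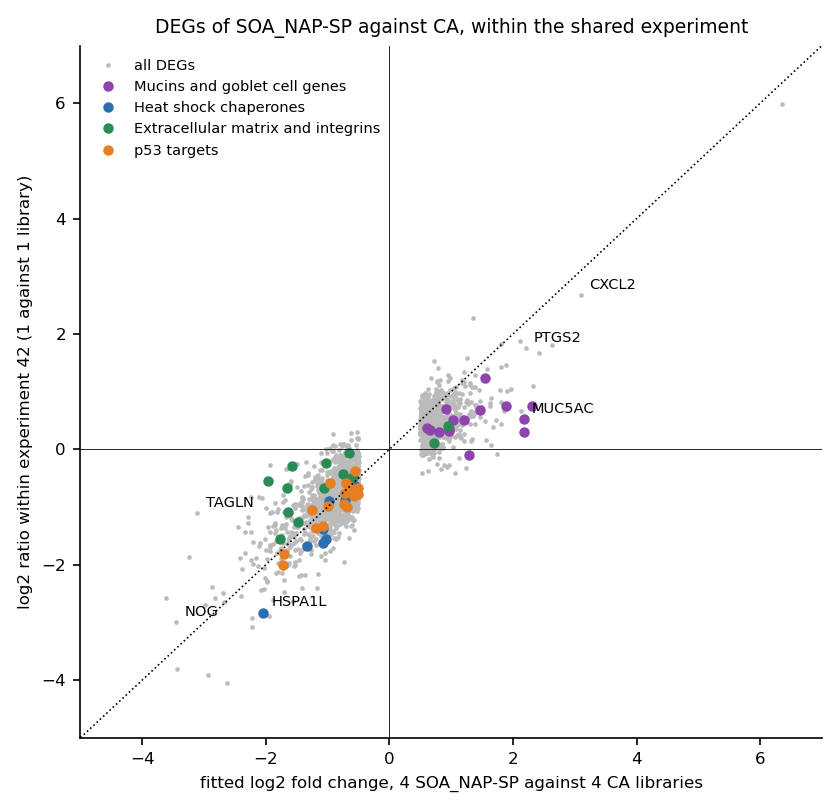
Log2 ratio of the SOA_NAP-SP to the CA library of experiment 42 (y axis) against the fitted log2 fold change of 4 against 4 libraries (x axis) for the 2148 DEGs, with 4 lists in colour and equality as a dotted line. Most mucin genes lie nearer to 0 than the line (MUC5AC 0.52 against 2.17) and most heat shock genes farther from 0 (HSPA1L -2.83 against -2.05). The point at the upper right is AC073140.2, a transcript with at most 0.887 normalized counts in any CA library.

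Direct tests against the other aerosols asked where SOA_NAP-SP differed from them. Their libraries share no experiment with SOA_NAP-SP, and by the study's estimates of deposition the doses differed, so aerosol, dose and experiment cannot be told apart. Against SOA_βPIN-SP 881 genes differed (7.48% of those tested), 406 higher and 475 lower with SOA_NAP-SP. Against SP 839 differed (7.13%), 334 higher and 505 lower. Without SP replicate 1 the latter count was 239, without SP replicate 2 it was 409, and without SOA_NAP-SP replicate 3 the counts were 485 against SP and 569 against SOA_βPIN-SP.

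Of the 18 cytokine genes, 5 were higher and 2 lower than with SOA_βPIN-SP (3.45% and 4.03% of all genes), and 5 were higher and 1 lower than with SP (2.84% and 4.29%). Without SOA_βPIN-SP replicate 1 or without SP replicate 1 the count of higher genes was 3, and 5 were lower than with SOA_βPIN-SP under scaling by totals alone. CXCL8 held 534, 883 and 956 with SP, and 648, 799, 712 and 960 with SOA_βPIN-SP, all under the lowest SOA_NAP-SP library (1676). Its log2 fold change was 1.45 (SE 0.24, edgeR adjusted p = 0.0018) against SOA_βPIN-SP and 1.44 (SE 0.26, edgeR adjusted p = 0.0062) against SP. CXCL2 was likewise higher, by 1.61 (SE 0.18, edgeR adjusted p = 3.1e-05) and 1.52 (SE 0.20, edgeR adjusted p = 4.6e-04), and CXCL3 by 1.29 (SE 0.17, edgeR adjusted p = 1.0e-04) and 1.19 (SE 0.19, edgeR adjusted p = 0.0012). CXCL1 was higher by 0.84 (SE 0.24, edgeR adjusted p = 0.025) and 1.03 (SE 0.27, edgeR adjusted p = 0.023). Its call against SOA_βPIN-SP was lost without SOA_βPIN-SP replicate 1 (0.81), SOA_βPIN-SP replicate 2 (0.75) or SOA_NAP-SP replicate 4 (0.63), and its call against SP without SP replicate 1 (0.87) or 2 (1.11). PTGS2 differed from SP by 1.08 (SE 0.13, edgeR adjusted p = 2.1e-04), and from SOA_βPIN-SP by 0.56 (SE 0.12, edgeR adjusted p = 0.0038), a call lost without SOA_NAP-SP replicate 2 (0.44) or with scaling by totals alone (0.44). DUSP10 was higher than in both, by 0.98 (SE 0.11, edgeR adjusted p = 2.6e-05) and 1.22 (SE 0.12, edgeR adjusted p = 1.6e-05). NFKBIA, in contrast, was no DEG against either, at -0.28 (SE 0.14, edgeR adjusted p = 0.15) and 0.22 (SE 0.15, edgeR adjusted p = 0.32).

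Of 21 immediate early factors, 14 were higher than with SOA_βPIN-SP (background 3.45%, median 0.96 beside 0.01 over all genes) and 2 higher than with SP (background 2.84%, median 0.49). The first count was 9 without SOA_βPIN-SP replicate 1. The second was 6 with limma-voom or DESeq2, 7 with 1 surrogate variable, and 0 without SP replicate 1, SP replicate 3 or SOA_NAP-SP replicate 3. FOS was higher than with SOA_βPIN-SP by 1.49 (SE 0.34, edgeR adjusted p = 0.013), and EGR1, a zinc finger factor of the same class, by 1.76 (SE 0.43, edgeR adjusted p = 0.019). The EGR1 call was lost without SOA_βPIN-SP replicate 1 (1.64) or 2 (1.74). Against CA, EGR1 was no DEG in the main fit, and it passed with 1 surrogate variable (0.88, edgeR adjusted p = 0.027). Of the heat shock genes, which were lower than in CA, 11 of 24 were higher with SOA_NAP-SP than with SOA_βPIN-SP, and 0 lower, with a median of 0.53. That count was 2 without SOA_NAP-SP replicate 3, 4 with scaling by totals alone, and 6 or 7 without any 1 SOA_βPIN-SP library. HSPB8 held 335, 456, 469 and 839 with SOA_βPIN-SP, under every SOA_NAP-SP library, a difference of 1.2 (SE 0.31, edgeR adjusted p = 0.022), which lost its call without SOA_βPIN-SP replicate 1 (1.05), SOA_βPIN-SP replicate 2 (1.13) or SOA_NAP-SP replicate 3 (1.06). HSPA6 was higher than with SOA_βPIN-SP by 3.81 (SE 1.02, edgeR adjusted p = 0.026), a call lost without SOA_βPIN-SP replicate 1 (3.75), 2 (3.87) or 4 (4.11), without SOA_NAP-SP replicate 3 (2.96), or by limma-voom with the experiment as a random block (3.26).

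Of 39 DNA replication genes, 11 were lower than with SOA_βPIN-SP (background 4.03%, median -0.32) and 0 higher, and of 39 mitosis genes 7 were lower and 1 higher (median -0.24). Without SOA_NAP-SP replicate 3 these falls numbered 5 and 2, without SOA_βPIN-SP replicate 1 they numbered 7 and 2, and without SOA_βPIN-SP replicate 2 they numbered 5 and 3. The mitosis count was 12 with scaling by totals alone, 11 without SOA_βPIN-SP replicate 3 and 4 without SOA_NAP-SP replicate 4. CDC6, which loads the replicative helicase, was lower, at -1.5 (SE 0.19, edgeR adjusted p = 1.6e-04), against SOA_βPIN-SP and at -1.23 (SE 0.20, edgeR adjusted p = 0.0023) against SP. CDK6 was lower as well, at -0.91 (SE 0.12, edgeR adjusted p = 8.4e-05) and -0.92 (SE 0.12, edgeR adjusted p = 4.6e-04). CYP1A1 was lower with SOA_NAP-SP than in CA and higher than with SOA_βPIN-SP, by 1.55 (SE 0.36, edgeR adjusted p = 0.0073). Its SOA_βPIN-SP libraries held 4.28, 5.04, 3.03 and 12.4, and those of SP 8.55, 11.1 and 8.81.

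Mucin and goblet cell genes were higher than with SP in 10 of 18 (background 2.84%, median 1.10) and than with SOA_βPIN-SP in 5 of 18 (background 3.45%, median 0.64). Leaving out SP replicate 1 or 2 lowered the count against SP to 3, and leaving out SOA_NAP-SP replicate 3 to 6. The count against SOA_βPIN-SP was 10 with limma-voom, 8 with DESeq2, 9 with only the 2 groups compared in the fit, and 3 with scaling by totals alone or without SOA_βPIN-SP replicate 1, SOA_βPIN-SP replicate 2 or SOA_NAP-SP replicate 3. CREB3L1 was called in both, at 1.2 (SE 0.31, edgeR adjusted p = 0.016) against SOA_βPIN-SP and 2.29 (SE 0.39, edgeR adjusted p = 0.0030) against SP. MUC5AC was called in neither, at 0.97 (SE 0.57, edgeR adjusted p = 0.26) and 1.96 (SE 0.65, edgeR adjusted p = 0.070), and limma-voom and DESeq2 called it against SP (2.07 and 1.97). The contractile list had a median of 0.00 against SOA_βPIN-SP, with 12 of 24 estimates above 0. PDGFB held 84.2, 93.6, 89 and 85.7 with SOA_βPIN-SP, a difference of -0.18 (SE 0.20, edgeR adjusted p = 0.57), but 206, 294 and 159.8 with SP, a difference of -1.48 (SE 0.20, edgeR adjusted p = 6.4e-04). Of genes that fell against CA, AJUBA differed from SOA_βPIN-SP by 0.05 (SE 0.11, edgeR adjusted p = 0.79) and NOG by 0.06 (SE 0.52, edgeR adjusted p = 0.95), and the sign of these small values turned in some alternatives given in the closing section. ANKRD1 was higher than with SOA_βPIN-SP, by 1.34 (SE 0.34, edgeR adjusted p = 0.018), a call lost without SOA_βPIN-SP replicate 1 (1.27) or 2 (1.30). Among ZNF genes, 26 of 263 were lower than with SOA_βPIN-SP (background 4.03%, median -0.14) and 37 lower than with SP (background 4.29%, median -0.26). With scaling by totals alone these counts were 53 and 70. Leaving out SP replicate 1 gave 7 lower than with SP, SP replicate 2 gave 14, and SOA_NAP-SP replicates 2, 3 and 4 gave 21, 24 and 24.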

How the data were processed

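The authors deposited raw counts of reads per gene for A549 and EA.hy926 cells, from poly-A libraries. Per the paper's methods, reads were trimmed with cutadapt, aligned with STAR (2.7.3a in the submitters' processing notes), reduced to 1 read per molecular identifier and counted with HTSeq. The methods name the human genome, whereas the processing notes list GRCm38, a mouse build; the human gene symbols and identifiers were used as deposited. The counting strand was not given in the sources used here, so antisense and overlapping genes are uncertain. Deposited normalized tables were not used.

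The 15 A549 libraries were fitted by exposure with edgeR 4.0.16 (TMM scaling, quasi-likelihood F test, two-sided, Benjamini-Hochberg over 11775 genes) in R 4.3.3, not with the voom and batch model of the study, whose batches the labels do not name. DEGs needed an adjusted p of 0.05 and 0.5 on the log2 scale. Alternatives used limma 3.58.1, DESeq2 1.42.0 and sva 3.50.0. Library totals were 7317041 to 15012539 counts. The test was also run on simulated counts, and the outcome is not reported here. Per the paper's methods the libraries of a group came from independent exposure experiments, and the labels give each library of a group its own experiment number.

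Named genes were drawn from the 15 largest rises and 15 largest falls without overlap and with a mean of at least 30 normalized counts, the 10 smallest adjusted p in each direction, the 4 largest changes per list, and genes the study names for A549 cells. With the genes added afterwards these were 248, of which 102 are described; the described ones were picked after their values were seen, with their stability across settings partly in view, and the others are not reported here. CXCL5, CCL2, EGR1, HSPA6, MDM2, CDKN1A, FOXA3, AC073140.2, MT-TF, MT-TV, MT-RNR1, MT-RNR2, MT-CO2, MT-CO3 and MT-ND3 were chosen after their values were seen, and so were the genes given against SOA_βPIN-SP and SP, in part with their stability in view. The comparison, lists and members were chosen with earlier results of these data known. Positions are from GENCODE v44 (11762 genes matched) and promoter windows from RefSeq, both GRCh38.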

Additional observations from a re-analysis of the deposited data

Results flagged for a closer look

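For each gene described, the highest or lowest of the 4 libraries was set against the gap to its nearest neighbour by Dixon's 95% limit in 306 groups, and 16 libraries stood apart. Chance marks about 1 in 20 groups. In CA, replicate 3 stood above the others for AHR (619.843 normalized counts, nearest 416), replicate 2 for SESN1 (101.203, nearest 84.3) and replicate 4 for AC073140.2 (0.887105, the others at 0). With SOA_NAP-SP, replicate 3 stood above the others for CXCR4 (188.071, nearest 74.2), PGF (228.036, nearest 99.2), SESN1 (43.4915, nearest 23.4) and ZNF551 (64.6495, nearest 57.2), and replicate 4 stood below for ZNF365 (7.63264, nearest 12.03). With SOA_βPIN-SP, replicate 1 stood above for AC073140.2 (35.6898) and below for HMOX1 (17455.2, nearest 27048), and replicate 2 above for ZNF548 (25.199) and MT-ND3 (5193.15, nearest 5020.69). SOA_βPIN-SP replicate 4 stood above for DUSP8 (297.334) and HIF1A-AS3 (0.772295) and below for CDC6 (690.432) and INSIG1 (788.513).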

How the results depend on the processing

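Against CA, 2148 DEGs were counted, and the other settings that kept the count within 1.5 times gave 1931 (counts thinned to the shallowest library) to 2588 (no filter on low counts). Scaling by library totals alone gave 524 higher and 1744 lower genes. A minimum of 30 CPM in at least 3 libraries, which left 5771 genes to test, gave 791 DEGs (309 higher and 482 lower), 368 against SOA_βPIN-SP and 376 against SP. Leaving out 1 library gave 1889 to 2274 against CA (692 to 953 higher, 1197 to 1362 lower), 569 to 1093 against SOA_βPIN-SP and 239 to 1084 against SP. Against SP, scaling by totals alone gave 1359 (194 higher and 1165 lower).

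Against CA none of the 248 genes that met the naming rule or were added turned its sign under any setting. Of the 248, 25 lost their call with scaling by totals alone, 23 without CA replicate 1, 26 without CA replicate 4 and 9 with only the 2 groups compared in the fit. Of the 102 described, which were picked from these partly for stability, 2, 2, 4 and 1 did. With the minimum of 30 CPM, lists lost members, and 9 of 10 mucin genes and 2 of 8 cytokine genes were higher, and 8 of 18 p53 targets, 6 of 25 BMP and TGF-β genes and 14 of 56 ZNF genes lower. Against SOA_βPIN-SP, AJUBA (0.05) turned to -0.085 with scaling by totals alone and ranged from -0.020 without SOA_βPIN-SP replicate 3 to 0.17 without SOA_βPIN-SP replicate 4. NOG (0.06) turned to -0.059 with scaling by totals alone, -0.07 without SOA_βPIN-SP replicate 1, -0.19 without SOA_βPIN-SP replicate 3 and -0.059 without SOA_NAP-SP replicate 2, and stood at 0.58 without SOA_βPIN-SP replicate 4. Against SP, ANKRD1 (-0.25) ranged from -0.45 without SP replicate 3 to 0.16 without SP replicate 2. The cause of these changes was not tested.

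The replicate numbers of the labels did not pair the samples, since same-numbered CA and SOA_NAP-SP libraries carry different experiment numbers. In their deviations from the group means these libraries correlated at 0.162, 0.357, -0.00137 and 0.0689. SOA_NAP-SP replicate 1 and CA replicate 3, both of experiment 42, correlated at -0.120, so such correlations cannot decide on pairing. With the replicate number as a block, 2139 genes were DEGs and 3 of the 248 genes lost their call, none of them among the 102. Genes with few counts, such as GDF6 and NOG with SOA_NAP-SP, have values limited by depth.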
